A study of Homo sapiens with 4 samples.

Results

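The mRNA levels of 10 genes for inflammatory and profibrotic cytokines, chemokines and a prostaglandin synthase were compared between LX-2 cells that had received miR-6133-5p and LX-2 cells that had received a control. The genes were taken by name from the table of gene counts. They comprise the interleukin-6 (IL-6) family ligands *IL6*, *IL11* and *LIF*, the chemokines *CXCL1*, *CXCL2*, *CXCL8*, *CXCL12* and *CCL2*, the cytokine gene *IL1B* and the prostaglandin synthase gene *PTGS2*. The table held 63677 gene IDs, 18252 of which had enough counts to be tested, and all 10 genes were among the latter. In the miR-6133-5p group, *LIF*, *PTGS2* and *CCL2* fell to 38.6%, 40.6% and 50.4% of their miControl level. *IL6*, *IL11* and *CXCL12* were at 59.8%, 63.3% and 63.3%, whereas *CXCL1*, *CXCL2*, *CXCL8* and *IL1B* were at 126%, 125%, 142% and 147%.

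LX-2 is an established human cell line derived from hepatic stellate cells. The cells were transfected at 20 nmol/L with a mimic of miR-6133-5p, a human microRNA, or with miControl, the manufacturer's negative control mimic. rhTGF-β1 (recombinant human transforming growth factor β1) was added to all cultures at 5 ng/mL 24 h later, and RNA was taken after a further 24 h, so that no group without rhTGF-β1 was compared. Each group had 2 libraries of poly(A) RNA, called replicates 1 and 2. The labels do not say whether these came from separate cultures, and the p-values therefore measure only the spread between these libraries, which may be technical. LX-2 is a single immortalized line grown without hepatocytes, macrophages or endothelial cells.

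Stellate cells store vitamin A in the healthy liver and become collagen-producing myofibroblasts after injury, a change that TGF-β1 promotes. Activated stellate cells also secrete cytokines and chemokines, which act on themselves and on leukocytes. Ligands of the IL-6 family signal through receptors that share the gp130 subunit and activate JAK kinases and STAT3. CXCL1, CXCL2 and CXCL8 are chemokines that attract neutrophils through CXCR1 and CXCR2, whereas CCL2 attracts monocytes through CCR2 and CXCL12 acts on CXCR4. IL-1β is a cytokine that activates NF-κB through the IL-1 receptor, and PTGS2, also called COX-2, is the inducible enzyme that makes the precursor of the prostaglandins. Many of these genes are known targets of NF-κB and AP-1, and many of their mRNAs are short-lived because of AU-rich elements in the 3′-UTR.

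Gene counts summed to between 51862006 and 93811213 per library, and the counts carry counting error as well as amplification and biological variation. Levels are given as CPM, the counts per 1000000 counts of a library total that was adjusted by edgeR's TMM factor, with mean ± SD (n = 2). A gene was called lower or higher when its log2 fold change was beyond 0.8 and edgeR's quasi-likelihood test gave an adjusted p-value below 0.01, with Benjamini–Hochberg adjustment over all tested genes. An exact permutation test of 2 libraries against 2 cannot give a p-value below 0.333, so no single gene was tested without the variance that edgeR shares across genes. The stellate cell genes *COL1A1* and *VIM* were abundant, whereas *DES*, *LRAT* and *LUM* were at or near 0 in all 4 libraries. Since RNA from whole cultures was measured, fewer cells that express a gene and less of its RNA per cell cannot be told apart.

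By edgeR, 3 of the 10 genes passed as lower and 0 passed as higher. The same call was reached by 5.54% of all tested genes as lower and by 2.90% as higher. At an adjusted p-value below 0.01 with any fold change, 5 of the 10 were lower and 2 were higher, against 10.9% and 7.96% of all tested genes. At an unadjusted p-value below 0.05, 6 were lower and 3 were higher, against 20.3% and 20.0% of all tested genes, and DESeq2 called 0 of the 10 higher. For 6 of the 10 genes the higher miR-6133-5p library was below the lower miControl library, for 3 the reverse held, and the groups overlapped for *CXCL2*. Over all tested genes these arrangements held for 31.3% and 33.2%. The median log2 fold change was -0.66 for the 10 genes and 0.03 for all tested genes. Scaled by library totals alone, it was -0.50 for the 10 genes and 0.19 for all tested genes.

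**Figure D1:**
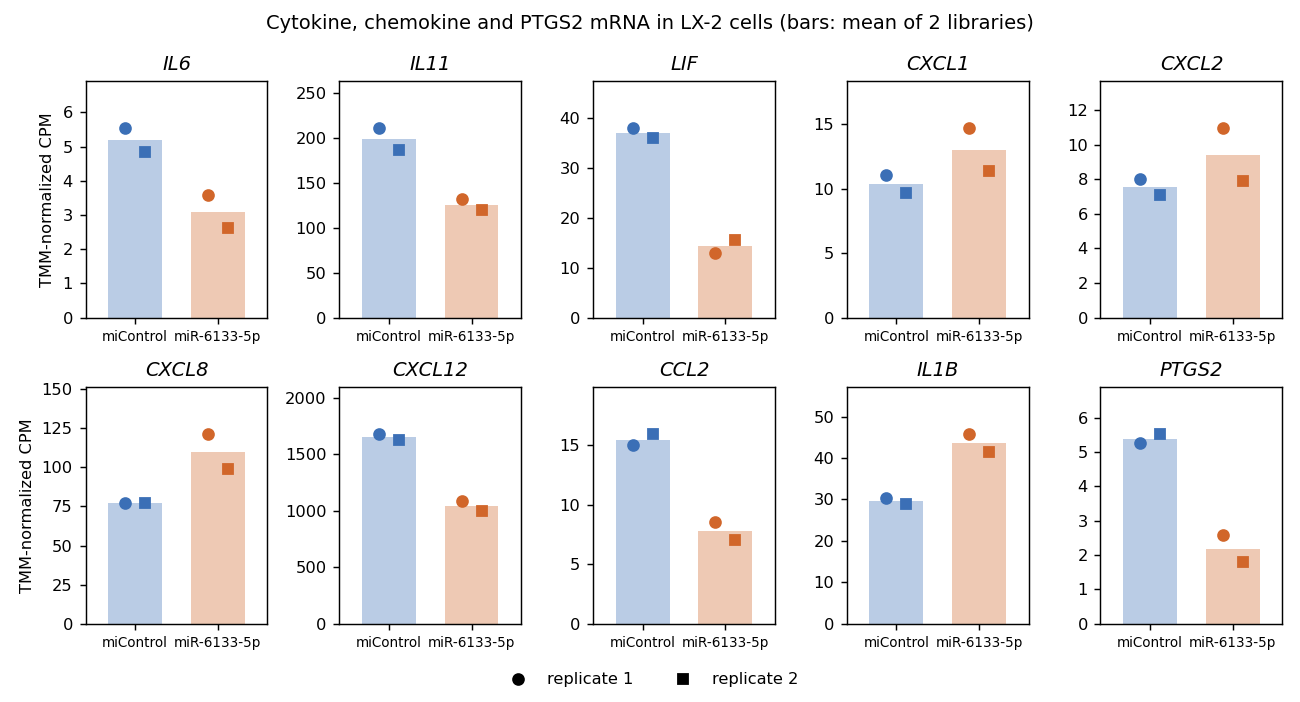
TMM-normalized CPM (vertical axis, linear and starting at 0, with its own range for each gene) of the 10 genes in the miControl and miR-6133-5p groups, with points for the libraries and bars for the mean of 2 libraries. The points of the groups are apart for 9 genes, with miR-6133-5p lower for 6 and higher for 3, and overlap for *CXCL2*.

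*LIF* (ENSG00000128342), which encodes leukemia inhibitory factor, was called lower. Its level was 38.0 and 36.1 CPM in miControl replicates 1 and 2, and 13.0 and 15.6 CPM in miR-6133-5p replicates 1 and 2. The groups were far apart compared with the gaps between replicates. Group means were 37 ± 1.33 and 14.3 ± 1.85 CPM, and the log2 fold change was -1.37 (SE 0.121, edgeR adjusted p = 2.76e-06). Leaving out any 1 library gave log2 fold changes between -1.53 and -1.27. *LIF* lies on the minus strand of chromosome 22 from 30636442 to 30642748 (GRCh37). Antisense exons, those of *LIF-AS1* and *LIF-AS2*, overlie 4.37% of its exon bases, and reads there cannot be assigned if the counting ignored the strand, which the sources used here do not give.

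*IL11* (ENSG00000095752) encodes interleukin-11, a cytokine that TGF-β1 induces in fibroblasts. It had the highest level of the 3 ligands per exon length, and was at 211 and 187 CPM in the miControl libraries and 132 and 119.5 CPM in the miR-6133-5p libraries. Both miR-6133-5p values were lower than both miControl values. Averages of 199 ± 17.4 CPM in miControl and 126 ± 9.04 CPM in miR-6133-5p gave a log2 fold change of -0.66 (SE 0.110, edgeR adjusted p = 0.000547), which is smaller than the 0.8 required for a call. Without miControl replicate 1, which had the highest value, the log2 fold change was -0.58 and the edgeR adjusted p was 0.0326. *IL11* lies on the minus strand of chromosome 19 from 55875750 to 55881831 (GRCh37).

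*IL6* (ENSG00000136244), which encodes interleukin-6, was a low-abundance mRNA with between 234 and 272 counts per library. Its level was 5.53 and 4.83 CPM in the miControl libraries and 3.58 and 2.61 CPM in the miR-6133-5p libraries. The groups did not overlap, but the replicates of miR-6133-5p differed by 0.45 on the log2 scale. This corresponded to 5.18 ± 0.498 against 3.10 ± 0.683 CPM and to a log2 fold change of -0.75 (SE 0.194, edgeR adjusted p = 0.0101), which passed neither threshold. Without miR-6133-5p replicate 1 it was called lower, with a log2 fold change of -1.0 and an edgeR adjusted p of 0.000135, and without miR-6133-5p replicate 2 the log2 fold change was -0.55. *IL6* lies on the plus strand of chromosome 7 from 22765503 to 22771621 (GRCh37), and 9.91% of its exon bases are covered by exons of *IL6-AS1* and *STEAP1B* on the opposite strand.

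Among the chemokine genes, those for the CXCR2 ligands had positive fold changes and those for CXCL12 and CCL2 had negative ones. *CXCL8* (ENSG00000169429), which encodes interleukin-8, was at 77.4 and 77.0 CPM in the miControl libraries and at 121 and 98.9 CPM in the miR-6133-5p libraries. The miControl replicates were nearly equal, and both miR-6133-5p replicates were above them. Group means were 77.2 ± 0.266 and 109.9 ± 15.6 CPM, and the log2 fold change was 0.51 (SE 0.115, edgeR adjusted p = 0.00454), smaller than 0.8. The edgeR adjusted p was 0.0113 without miR-6133-5p replicate 1, and 0.0846 and 0.0793 without miControl replicates 1 and 2.

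*CXCL1* (ENSG00000163739) was at 11.1 and 9.62 CPM in the miControl libraries and at 14.7 and 11.4 CPM in the miR-6133-5p libraries. The lower miR-6133-5p value was close to the higher miControl value. The log2 fold change was 0.33 (SE 0.148, edgeR adjusted p = 0.115), from a mean of 10.4 ± 1.04 to 13.0 ± 2.34 CPM. *CXCL2* (ENSG00000081041) was at 8.01 and 7.07 CPM in the miControl libraries and at 10.9 and 7.89 CPM in the miR-6133-5p libraries. Here the groups overlapped, because miR-6133-5p replicate 2 lay below miControl replicate 1. Its log2 fold change was 0.32 (SE 0.166, edgeR adjusted p = 0.178), from 7.54 ± 0.669 to 9.41 ± 2.15 CPM. Without miR-6133-5p replicate 1 the log2 fold changes were 0.12 for *CXCL1* and 0.05 for *CXCL2*. Without miR-6133-5p replicate 2 they were 0.49 and 0.52, with edgeR adjusted p-values of 0.00661 and 0.00623.

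These 3 genes lie within 358678 bases on chromosome 4, from 74606236 to 74964913 (GRCh37), with other genes of the same chemokine family. *CXCL8* runs from 74606236 to 74609433 and *CXCL1* from 74735110 to 74737025 on the plus strand, and *CXCL2* from 74962757 to 74964913 on the minus strand. The annotation holds 16 genes there, of which 6 were tested. All 6 had a positive log2 fold change, where the median over all tested genes was 0.03, and *CXCL5* alone was called higher. The groups overlapped for *CXCL2* and *CXCL6*. *CXCL5*, another neutrophil chemokine, was at 0.814 and 0.753 CPM in the miControl libraries and at 2.45 and 2.58 CPM in the miR-6133-5p libraries, a log2 fold change of 1.68 (SE 0.254, edgeR adjusted p = 0.000256). *CXCL3* was at 1.75 and 1.41 CPM in the miControl libraries and at 2.42 and 2.14 CPM in the miR-6133-5p libraries, without overlap and with a log2 fold change of 0.52 (SE 0.237, edgeR adjusted p = 0.116). *CXCL6* had a log2 fold change of 0.18 (SE 0.351, edgeR adjusted p = 0.748). The platelet chemokine genes *PF4* and *PF4V1* had 0 counts in all 4 libraries. *CXCL1* and *CXCL2* are close in sequence, but no window of 100 bases of either transcript was found in a transcript of another gene.

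The promoters of these chemokine genes are shown because the genes lie close together and their fold changes share a sign. In the window from 250 bases before to 50 bases after the start site given by RefSeq (GRCh38.p14), the letters GGNNTTTCC, a form of the κB motif bound by NF-κB, were searched on both strands. They occur in 6.26% of 27305 promoters, and in 6.50% of the 11905 promoters of tested genes. Among the 10 genes, 8 had a promoter in the table, all but *LIF* and *CCL2*, and the letters were found in *IL6*, *CXCL1*, *CXCL2* and *CXCL8*. They were found in *CXCL3*, *CXCL5* and *CXCL6* as well, and were not found in *IL11*, *CXCL12*, *IL1B* or *PTGS2*. The 30-base windows below are written 5′ to 3′ on the strand of the gene with the match in capitals. *CXCL1*, *CXCL2* and *CXCL3* each held a second match, of which that of *CXCL1* is shown.
CXCL8, chr4:73740468-73740497 (plus): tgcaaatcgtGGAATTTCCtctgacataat
CXCL1, chr4:73869305-73869334 (plus): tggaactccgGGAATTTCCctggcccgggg
CXCL1, second match, chr4:73869330-73869359 (plus): cgggggctccGGGCTTTCCagccccaacca
CXCL2, chr4:74099253-74099282 (minus): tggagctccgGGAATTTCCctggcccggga
CXCL3, chr4:74038748-74038777 (minus): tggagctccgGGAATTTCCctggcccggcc
CXCL5, chr4:73998748-73998777 (minus): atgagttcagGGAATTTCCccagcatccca
CXCL6, chr4:73836579-73836608 (plus): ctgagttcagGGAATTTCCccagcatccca
IL6, chr7:22727118-22727147 (plus): atcaaatgtgGGATTTTCCcatgagtctca
The 6 tested chemokine genes of the region all hold the same 9 letters GGAATTTCC, starting between 91 and 77 bases before the start site. The promoters of *PF4*, *PF4V1* and *PPBP*, chemokine genes of the region that were not tested, were not examined singly. The windows of *CXCL1*, *CXCL2* and *CXCL3* are nearly alike around these letters, as are those of *CXCL5* and *CXCL6*. The matches are therefore not independent of each other, and their number cannot be weighed against the share of all promoters. *IL6*, whose fold change had the opposite sign, holds GGATTTTCC starting 72 bases before it.

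A motif of AP-1, TGANTCA, was searched in the same windows and does not overlap the κB matches. It occurs in 7.76% of all promoters and in 5.00% of those of tested genes. Among the 8 promoters it was found in *IL11* and *CXCL8*, which had fold changes of opposite sign, and in none of *CXCL3*, *CXCL5* and *CXCL6*.
IL11, chr19:55370541-55370570 (minus): ggcagggagggTGAGTCAggatgtgtcagg
CXCL8, chr4:73740421-73740450 (plus): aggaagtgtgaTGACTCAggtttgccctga
These matches describe the letters of the windows, and binding was not measured.

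*CXCL12* (ENSG00000107562), which encodes stromal cell-derived factor 1, had by far the highest level of the 10 mRNAs per exon length. It was at 1677 and 1626 CPM in the miControl libraries and at 1089 and 1000.1 CPM in the miR-6133-5p libraries. The gap between the groups was several times the gap between replicates. Averages of 1652 ± 35.7 CPM in miControl and 1045 ± 63.2 CPM in miR-6133-5p gave a log2 fold change of -0.66 (SE 0.101, edgeR adjusted p = 0.000289), smaller than 0.8 in size. The edgeR adjusted p was 0.0268 and 0.0107 without miControl replicates 1 and 2, with log2 fold changes of -0.65 and -0.71. *CXCL12* lies on the minus strand of chromosome 10 from 44865613 to 44881941 (GRCh37).

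*CCL2* (ENSG00000108691), which encodes monocyte chemoattractant protein 1, was called lower. It was at 15.0 and 15.9 CPM in the miControl libraries and at 8.56 and 7.03 CPM in the miR-6133-5p libraries. No miR-6133-5p value came near the miControl values. This corresponded to 15.5 ± 0.641 against 7.80 ± 1.08 CPM and to a log2 fold change of -0.99 (SE 0.136, edgeR adjusted p = 0.000115). It stayed called lower whichever library was left out, with a log2 fold change between -1.15 and -0.87. The adjusted p was 0.445 when 0.8 was itself the null value, in edgeR's glmTreat. *CCL2* lies on the plus strand of chromosome 17 from 32582293 to 32584227 (GRCh37).

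*IL1B* (ENSG00000125538), which encodes the precursor of IL-1β, was at 30.3 and 28.8 CPM in the miControl libraries and at 45.7 and 41.4 CPM in the miR-6133-5p libraries. Both miR-6133-5p libraries were above both miControl libraries. Group means were 29.5 ± 1.05 and 43.6 ± 3.02 CPM, and the log2 fold change was 0.56 (SE 0.107, edgeR adjusted p = 0.00149), which is smaller than 0.8. The edgeR adjusted p was 0.0326 and 0.0490 without miControl replicates 1 and 2, with log2 fold changes of 0.58 and 0.50. *IL1B* lies on the minus strand of chromosome 2 from 113587328 to 113594393 (GRCh37).

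*PTGS2* (ENSG00000073756) was the least abundant of the 10 mRNAs per exon length and was called lower. It was at 5.25 and 5.51 CPM in the miControl libraries and at 2.57 and 1.80 CPM in the miR-6133-5p libraries, from between 168 and 300 counts per library. The miR-6133-5p values were well below the miControl values, although they differed from each other by 0.52 on the log2 scale. Averages of 5.38 ± 0.184 CPM in miControl and 2.18 ± 0.547 CPM in miR-6133-5p gave a log2 fold change of -1.31 (SE 0.203, edgeR adjusted p = 0.000311). The log2 fold change was -1.60, larger in size than that of *LIF*, without miR-6133-5p replicate 1 and -1.08 without miR-6133-5p replicate 2, and the gene stayed called lower with each library left out. With glmTreat against 0.8 the edgeR adjusted p was 0.0827. *PTGS2* lies on the minus strand of chromosome 1 from 186640923 to 186650054 (GRCh37), and exons of the antisense gene *PACERR* cover 3.99% of its exon bases.

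**Figure D2:**
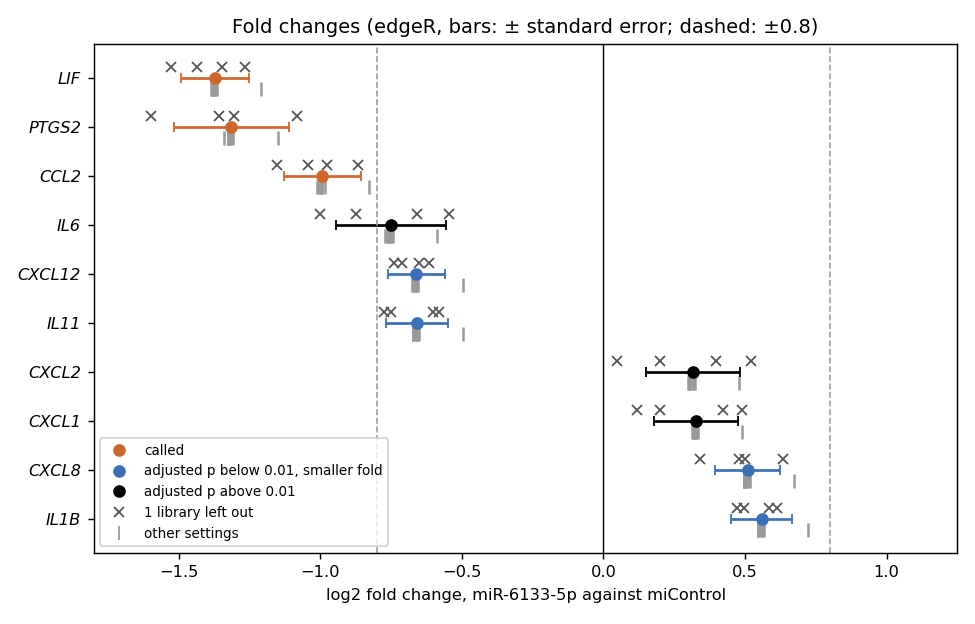
Log2 fold change of miR-6133-5p against miControl (horizontal axis) for the 10 genes, with bars for ± SE from edgeR, crosses for fits without 1 library and ticks for the other settings. *LIF*, *PTGS2* and *CCL2* lie beyond the dashed line at -0.8, and every cross and tick of a gene keeps the sign of its main value.

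The replicates of a group differed in a way that many of the 10 genes shared. The miR-6133-5p replicate 1 was above replicate 2 for 9 of the 10, all but *LIF*, where 52.0% of all tested genes had that order. In miControl, replicate 1 was above replicate 2 for 8 of the 10, all but *CCL2* and *PTGS2*, where 49.8% of all tested genes had it. The replicate 2 library of miR-6133-5p was also the most deeply sequenced. The part of this shared difference in the fold changes was not tested beyond leaving out each library.

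Levels of different genes were compared as CPM per kilobase of annotated exon. The annotated exons of *CCL2*, 1935 bases, fill its whole span, whereas those of *CXCL1* and *CXCL2* fill only part of theirs. The level of *CCL2* may therefore be understated beside the other genes, and its place in the order depends on this length. In the miControl group the order was *CXCL12* at 269 ± 5.82, *IL11* at 74.2 ± 6.48, *CXCL8* at 29.8 ± 0.103, *IL1B* at 9.82 ± 0.348 and *LIF* at 9.57 ± 0.343 CPM per kilobase. Below them came *CCL2* at 7.99 ± 0.331, *CXCL1* at 7.60 ± 0.761, *CXCL2* at 5.39 ± 0.478, *IL6* at 1.20 ± 0.115 and *PTGS2* at 0.981 ± 0.0335 CPM per kilobase. The libraries of *IL1B* and *LIF* overlapped in this order, as did those of *CCL2* and *CXCL1*, and the other neighbours did not. In the miR-6133-5p group *CXCL12* was at 170.1 ± 10.3, and *IL11* at 47.0 ± 3.37 overlapped with *CXCL8* at 42.5 ± 6.04 CPM per kilobase. There *CCL2* at 4.03 ± 0.561 and *LIF* at 3.69 ± 0.478 CPM per kilobase came after *IL1B*, *CXCL1* and *CXCL2*, and overlapped with each other. *IL6* and *PTGS2* were the lowest in both groups.

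**Figure D3:**
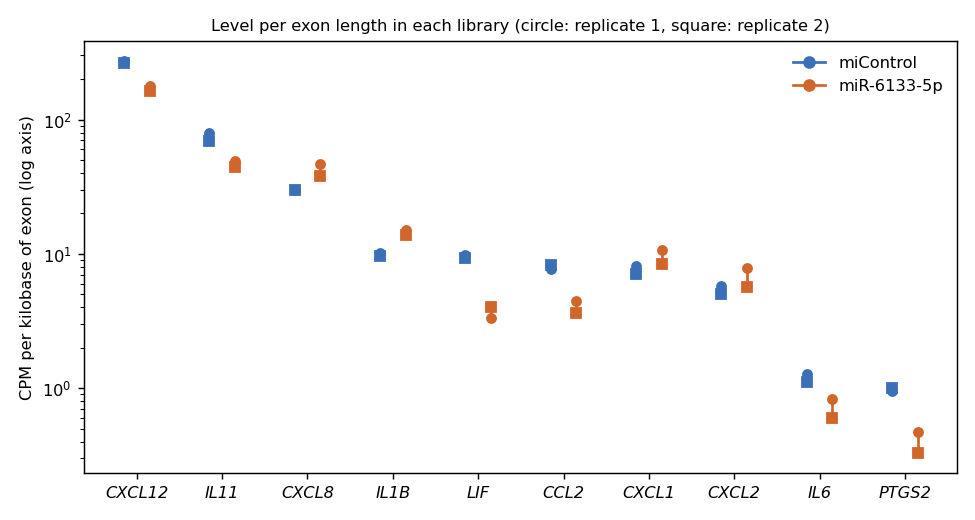
CPM per kilobase of annotated exon (log axis) of the 10 genes in each library, with circles for replicate 1, squares for replicate 2 and genes ordered by the miControl mean. *CXCL12* is the highest and *PTGS2* the lowest in both groups, and *LIF* and *CCL2* move below *CXCL1* and *CXCL2* in the miR-6133-5p group. The place of *CCL2* depends on annotated exons that fill its whole span.

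The 3′-UTRs of the 10 genes were examined for AU-rich elements, which regulate the stability of cytokine mRNAs. The nonamer TTATTTATT, which holds the pentamer ATTTA within it, was searched on the mRNA strand of 1 canonical transcript per gene (GRCh37). It occurs in the 3′-UTRs of 9.51% of 13380 tested genes. It was found in *IL11*, *LIF*, *CXCL1*, *CXCL2*, *CXCL8*, *IL1B* and *PTGS2*, and not in *IL6*, *CXCL12* or *CCL2*. The windows below are 30 bases in the sense of the mRNA, with the bases of the nonamers, which may overlap, in capitals. They are shown because the element is present in genes called lower and in genes with positive fold changes.
LIF, chr22:30636947-30636976 (minus): tctccgggcccTTATTTATTatttaaacat
PTGS2, chr1:186643449-186643478 (minus): aatgatcatatTTATTTATTtatatgaacc
IL11, chr19:55877311-55877340 (minus): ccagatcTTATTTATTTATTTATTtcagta
IL1B, chr2:113587570-113587599 (minus): cttccctatTTATTTATTTATTtgtttgtt
CXCL8, chr4:74608380-74608409 (plus): tatgtaaagtaTTATTTATTtgaatctaca
CXCL1, chr4:74736392-74736421 (plus): gtcttctatTTATTTATTTATTcattagtt
CXCL2, chr4:74963301-74963330 (minus): tctatTTATTTATTTATTTATTTATTtgtt
The pentamer ATTTA was found 22 times in the 2562 bases of the *PTGS2* 3′-UTR, 8.59 per 1000 bases, and 10 times in the 716 bases of that of *CXCL2*, 14 per 1000 bases. The *IL6* 3′-UTR, of 425 bases, held 6, or 14.1 per 1000 bases, although it held no nonamer. *CCL2* had 1 pentamer in 376 bases and *LIF* 7 in 3198 bases, 2.66 and 2.19 per 1000 bases. The median over all tested genes was 1.72 per 1000 bases, and all 10 genes were above it.

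Other genes of the same pathways were followed in 8 lists with 145 genes, of which 97 were tested. Of these, 4 were called lower, 9 higher and 84 neither, and their median log2 fold change was 0.002. Of all tested genes, 5.54% were called lower and 2.90% higher, and the counts of each list below are to be read beside these shares. With library totals alone 2 were called lower, *CXCL16* and *TNFAIP3* no longer being called, and 9 higher. Over all tested genes the median was 0.03.

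Of the other ligands of the IL-6 family, 1 of 4 tested was called. *CLCF1*, which encodes cardiotrophin-like cytokine factor 1, rose from 6.92 and 6.13 CPM in the miControl libraries to 16.3 and 15.2 CPM in the miR-6133-5p libraries (log2 fold change 1.27, SE 0.131, edgeR adjusted p = 1.08e-05). The direction was opposite to that of *LIF*. *OSM*, the gene for oncostatin M, had between 2 and 9 counts per library and was not tested. Of the 15 tested genes for receptors and the JAK–STAT3 pathway, only *PIAS3*, an inhibitor of STAT3, was called. It went from 15.5 and 16.9 to 34.5 and 31.8 CPM (log2 fold change 1.03, SE 0.114, edgeR adjusted p = 1.84e-05). *IL6ST*, which encodes the shared subunit gp130, was the most abundant of the list by CPM. It was at 474 and 727 CPM in the miControl libraries and at 473 and 534 CPM in the miR-6133-5p libraries, so that the miControl replicates were farther apart than the groups (log2 fold change -0.25, SE 0.161, edgeR adjusted p = 0.265). *OSMR*, the receptor subunit for oncostatin M, had a log2 fold change of -0.45 (SE 0.101, edgeR adjusted p = 0.00413), and *STAT3* had one of -0.17 (SE 0.102, edgeR adjusted p = 0.250).

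Of the other chemokines 6 were tested, and *CXCL5* and *CXCL16* were called. *CXCL16*, a transmembrane chemokine, fell from 1.34 and 1.36 to 0.627 and 0.343 CPM (log2 fold change -1.51, SE 0.368, edgeR adjusted p = 0.00752), from between 34 and 74 counts per library. Of the 16 chemokine receptor genes only 3 were tested. *ACKR3*, an atypical receptor that binds and takes up CXCL12, was called higher, at 0.814 and 0.679 CPM in the miControl libraries and 2.08 and 1.61 CPM in the miR-6133-5p libraries (log2 fold change 1.30, SE 0.293, edgeR adjusted p = 0.00448). *CXCR4*, the signaling receptor for CXCL12, and *CXCR2* had 0 counts in all 4 libraries, and *CCR2*, the receptor for CCL2, had 2 counts in a single library. Among these receptors *CXCR6*, which binds CXCL16, had a log2 fold change of 0.41 (SE 0.341, edgeR adjusted p = 0.408).

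Of the 21 tested genes of the IL-1 family, its receptors and their signaling proteins, 1 was called lower and 2 higher. *IL1R1*, the signaling receptor for IL-1β, fell from 16.2 and 16.3 CPM to 6.96 and 7.58 CPM (log2 fold change -1.16, SE 0.125, edgeR adjusted p = 1.58e-05). *SIGIRR*, an inhibitory receptor of the family, rose from 5.19 and 4.72 CPM to 9.91 and 9.98 CPM (log2 fold change 1.01, SE 0.141, edgeR adjusted p = 0.000143). *IRAK2*, a kinase-like adaptor below the receptor, rose from 9.97 and 10.4 CPM to 18.7 and 17.5 CPM (log2 fold change 0.83, SE 0.120, edgeR adjusted p = 0.000182). The ligand gene *IL1B* was at 147% of its miControl level, without a call, while its receptor gene was called lower. *MYD88*, the adaptor of the receptor, had a log2 fold change of -0.47 (SE 0.103, edgeR adjusted p = 0.00404), and *IRAK1*, the most abundant of the list, one of 0.21 (SE 0.105, edgeR adjusted p = 0.151). *IL1RN*, the gene for the receptor antagonist, had 0 counts in all 4 libraries.

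In the prostaglandin pathway, with 16 genes tested, 1 was called lower and 2 higher. *PTGS1*, the constitutive counterpart of *PTGS2*, fell with it, from 2.14 and 1.82 CPM to 0.780 and 0.918 CPM (log2 fold change -1.21, SE 0.276, edgeR adjusted p = 0.00482). *PTGIS*, prostacyclin synthase, rose from 0.203 and 0.184 CPM to 0.719 and 0.888 CPM (log2 fold change 2.05, SE 0.445, edgeR adjusted p = 0.00347), from 10 counts in each miControl library. *PTGIR*, the prostacyclin receptor, rose from 1.18 and 1.65 CPM to 3.06 and 3.08 CPM (log2 fold change 1.11, SE 0.234, edgeR adjusted p = 0.00291). Both synthase genes for the common precursor were called lower, while those for the synthase and the receptor of prostacyclin were called higher. Counts were low, between 51 and 105 per library for *PTGS1*, and 58 and 90 in miControl replicates 1 and 2 for *PTGIR*. *PTGS1*, *PTGIS* and *PTGIR*, unlike *PTGS2*, each lost the call in at least 1 fit that left out a library. *PTGES3*, the most abundant gene of the list, had a log2 fold change of 0.16 (SE 0.119, edgeR adjusted p = 0.352), and *PTGES* had 0 counts in all 4 libraries.

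Of the 17 tested genes for NF-κB and C/EBP factors and their feedback inhibitors, 1 was called, *TNFAIP3*, which encodes the inhibitor A20. It went from 44.3 and 45.3 CPM to 24.6 and 26.3 CPM (log2 fold change -0.82, SE 0.105, edgeR adjusted p = 6.87e-05), close to the threshold. The feedback inhibitor gene *NFKBIA* had the opposite sign, with a log2 fold change of 0.45 (SE 0.107, edgeR adjusted p = 0.00600). *CEBPB* and *NFKBIZ*, whose products promote the transcription of *IL6*, had log2 fold changes of -0.60 (SE 0.131, edgeR adjusted p = 0.00353) and -0.69 (SE 0.104, edgeR adjusted p = 0.000234). Neither was called, and their part in the value of *IL6* was not tested. *RELA*, the most abundant of the list, had a log2 fold change of -0.21 (SE 0.105, edgeR adjusted p = 0.159). Of the 15 tested genes for proteins that bind AU-rich elements or similar sites, *ZFP36*, which encodes tristetraprolin, was called higher. It was at 2.93 and 2.37 CPM in the miControl libraries and at 5.25 and 4.53 CPM in the miR-6133-5p libraries (log2 fold change 0.88, SE 0.189, edgeR adjusted p = 0.00317). Its paralog *ZFP36L1* had far more counts and a log2 fold change of 0.17 (SE 0.10, edgeR adjusted p = 0.224). *OSMR*, *STAT3*, *MYD88*, *NFKBIA*, *CEBPB*, *NFKBIZ* and the genes given at 0 counts were chosen after their values were seen.

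**Figure D4:**
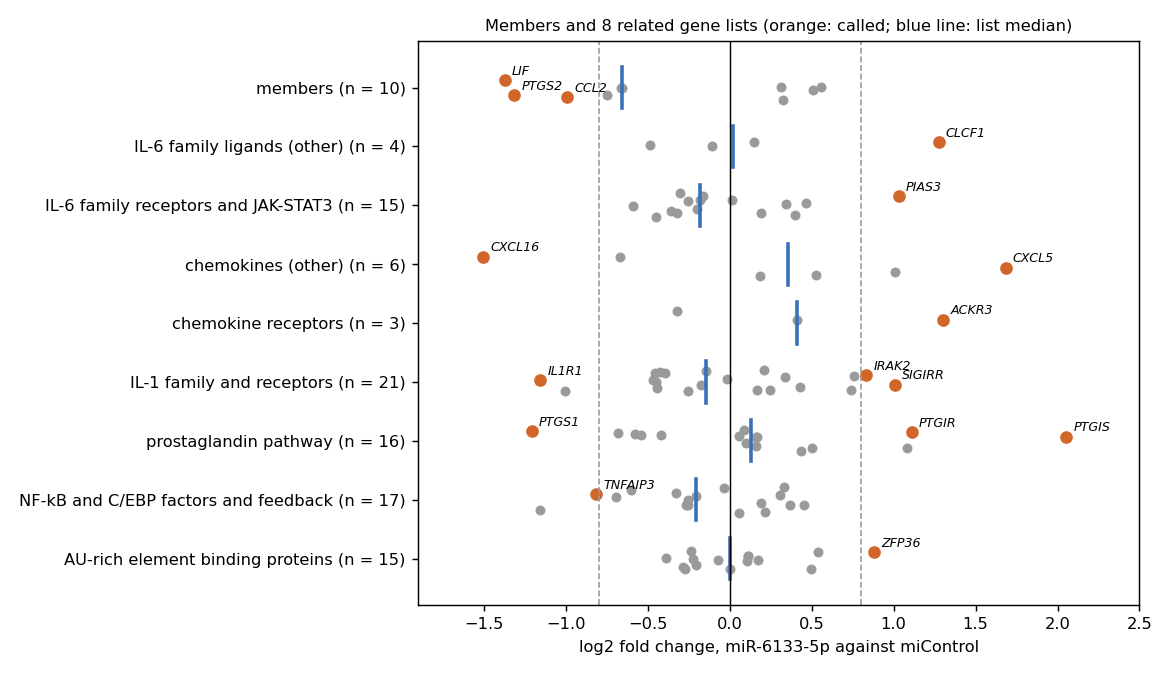
Log2 fold change of miR-6133-5p against miControl (horizontal axis) for the tested genes of the 10-gene group and of 8 related lists, with points for genes, blue lines for list medians and dashed lines at ±0.8. The 10-gene group has a median of -0.66, and the 13 called genes of the lists, in orange, lie on both sides of 0.

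Of these 13 called genes, *CLCF1*, *PIAS3*, *CXCL5*, *IL1R1* and *SIGIRR* were called with any 1 library left out. The other 8 were not called in at least 1 of these fits. Without miControl replicate 1 or 2 the number called fell to 6 and 8.

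Cell type markers were examined in the same libraries. The summed level of 14 stellate cell and fibroblast markers, 11 of them tested, was 5756 and 5225 CPM in the miControl libraries and 3582 and 3205 CPM in the miR-6133-5p libraries. Most of this difference was that of *COL1A1*, which went from 2917 ± 275 to 1064 ± 97.5 CPM. *COL1A1*, the most abundant of the list, and 3 others, *COL1A2*, *ACTA2* and *TAGLN*, were called lower, and 0 were called higher by edgeR. At an unadjusted p-value below 0.05 by edgeR, 7 were lower and 1 was higher. The log2 fold changes of *VIM*, *PDGFRB*, *THY1* and *S100A6*, likewise named after their values were seen, were -0.02, 0.04, 0.35 and 0.41. Those of *COL3A1*, *PDGFRA* and *DCN*, also not called, were -0.44, -0.97 and -2.40, with at most 10 counts of *DCN* per library. The leukocyte and macrophage markers, 10 in number, summed to between 9.33 and 11.5 CPM, most of it from *CSF1R*. *CD163*, *CD3E* and *TYROBP* had 0 counts in all 4 libraries, and *PTPRC* had between 3 and 23 counts per library. The 9 hepatocyte and epithelial markers summed to between 2.10 and 3.06 CPM, led by *SERPINA1*, and 6 of 7 endothelial markers found in the table summed to between 5.55 and 6.21 CPM, led by *TEK*. Only 3 leukocyte and macrophage, 1 hepatocyte and epithelial and 4 endothelial markers were tested. None of the tested genes of these 3 lists was called by edgeR in either direction, with *CD14* alone at an unadjusted p-value below 0.05, and DESeq2 called 0. The part of the stellate cell marker genes in the values of the 10 genes was not tested.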

How the data were processed

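RNA of 4 LX-2 libraries, 2 per group, was sequenced as pairs of 150 bases per mate after TruSeq Stranded mRNA preparation. According to the submitters' processing notes, reads were aligned with STAR 2.5.3a to GRCh37 and counted per Ensembl gene with featureCounts of Subread 1.6.4. The authors deposited whole-number read counts without normalization. The annotation release, strand setting and any filter on low counts are not given in the sources used here. The counts came to between 1.68 and 1.70 per uniquely mapped pair, so mates were probably counted singly, although the setting is not given. Pair numbers came from the deposited mapping summary. The separate count files of each library were not used.

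Low counts were removed with filterByExpr, TMM factors were computed and glmQLFit was run, in edgeR 4.0.16 (limma 3.58.1, R 4.3.3), and SEs were derived from the F statistic. In CPM, 1 count was worth between 0.0101 and 0.0203, and 3 counts at most 0.0610, which covers counting error only. The common biological coefficient of variation was 0.105. Of 63677 gene IDs, 55665 were matched to a symbol, and 3 listed genes (*CCL3*, *CCL4* and *PECAM1*) matched none. The 10 genes, the pathway lists and the marker lists were chosen with earlier results of these data known, so that no list is independent evidence. Named were the 10 genes, the up to 3 called genes per direction with the largest fold change in each pathway list, and the most abundant gene of every list by mean CPM, not scaled by length. Positions, exons and 3′-UTRs were read from GENCODE models lifted over to GRCh37, and the counting may have used other models. Promoters came from RefSeq (GRCh38.p14).

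The 12 alternatives were RLE factors, library totals alone, DESeq2 1.42.0, no filter, at least 10 counts in every library, a replicate block, each library left out, glmTreat and an adjusted p-value of 0.05. Counts halved to read pairs were added after seeing the data. The fit was tested on simulated data with changes larger than those of the 10 genes, so the simulation does not cover effects of their size. Tables and plots were made in Python 3.11.15 with numpy 2.4.6, pandas 2.3.3 and matplotlib 3.10.9.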

Additional observations from a re-analysis of the deposited data

How the results depend on the processing

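No fold change of the 10 genes changed sign under any of the 13 alternatives, and 0 of the 10 genes were called higher under any of them. *LIF*, *CCL2* and *PTGS2* were called lower under all of them except glmTreat, which tests the fold change against 0.8 itself and called 1, *LIF* (log2 fold change -1.37, edgeR adjusted p = 0.00190), leaving *CCL2* at -0.99 and *PTGS2* at -1.31 uncalled. With each library left out in turn, between 3 and 4 of the 10 were called lower, *IL6* being the addition without miR-6133-5p replicate 1. The pathway lists held 13 called genes, 0 with glmTreat and between 6 and 12 with 1 library left out. The lone library of a group was then assumed to vary like the other group. At an adjusted p-value below 0.01 with any fold change there were 7 of the 10, 3 and 4 without miControl replicates 1 and 2, and 9 without miR-6133-5p replicate 2. Over all tested genes, 1011 were called lower and 529 higher, against 709 and 977 with library totals alone and 326 and 80 with glmTreat. Medians of the lists for IL-1 and for proteins that bind AU-rich elements changed sign between scalings, to 0.02 with totals alone for the former and to -0.009 with RLE factors for the latter.

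The labels do not say whether the replicate numbers pair the libraries. The replicate differences of the groups had a correlation of 0.049 over genes, which cannot settle this with 2 libraries per group. With a replicate block, 3 of the 10 were called lower and 0 higher, 13 pathway genes were called, and the edgeR adjusted p of *IL6* was 0.000482 at a log2 fold change of -0.76. With 2 libraries per group no outlying library can be identified, and the counts of *IL6* and *PTGS2*, at most 300 per library, limit the precision of their values.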
